A study of Mus musculus with 7 samples.

Results

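The interferon-gamma-inducible GTPases described here are 10 genes chosen by symbol from the 56691 genes of the count table: the guanylate-binding proteins (GBPs) Gbp2, Gbp3, Gbp5, Gbp6 and Gbp7, and the immunity-related GTPases (IRGs) Irgm1, Irgm2, Igtp, Iigp1 and Ifi47. They were measured by poly(A) RNA sequencing of livers from male C57BL/6J mice, bought at 8 weeks of age and kept for 2 weeks. The LPS group (3 mice) received lipopolysaccharide, the outer membrane glycolipid of Gram-negative bacteria, at 10 mg/kg, and livers were taken 24 h later. The control group (4 mice) was labelled only as control, and what these mice were injected with is not given in the sources used here. The study used LPS as a model of acute liver injury in sepsis, with 6 mice per group, so the libraries cover part of each group, and the sulforaphane group was not analysed here.

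Interferon-gamma, made mainly by NK and T cells, binds the receptor chains Ifngr1 and Ifngr2 and acts through the kinases Jak1 and Jak2 and, further down, the target gene Irf1. Among its strongest targets in most cell types are the GBPs and IRGs, GTPases that assemble on the vacuoles and membranes of intracellular pathogens. Some GBPs also bind bacterial LPS and promote its sensing by caspase-11, the product of Casp4. Within the IRGs, Irgm1, Irgm2 and Igtp (also called Irgm3) are regulators that sit on the cell's own membranes and hold the effectors, such as Iigp1 and Ifi47, in an inactive state.

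Depth was of the same order in all libraries. Total counts per control library, by replicate number, were 14991022, 15096573, 15721944 and 18584140, and those of the LPS libraries 20500391, 17095607 and 17821331. Levels are given below as CPM, counts scaled to a library of 1000000 after adjustment by edgeR's TMM factors. Mitochondrial genes took 23.7%, 14.6%, 7.48% and 8.96% of the counts in control replicates 1 to 4 and 6.45%, 3.83% and 3.94% in LPS replicates 1 to 3, so this share was higher in every control library than in every LPS library. LPS replicates 2 and 3 resembled each other more than any other pair of a group did: over 5317 genes, log2 ratios between them had an SD of 0.19, and those of other pairs SDs from 0.33 to 0.54. The pair's mean chi-square per gene, taken over a wider set of 12907 genes, was 4.58, where counting noise alone gives 1. This does not show that they come from separate mice, which the labels do not settle. They are treated below as separate mice, and their sum is among the alternatives.

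After LPS, Gbp2, Gbp5 and Gbp6 had larger fitted changes than any IRG member, Gbp3 (0.73) was level with the largest IRG, Irgm2 (0.72), and Gbp7 had the lowest of all members. Gbp5 and Gbp6 were called higher, no IRG member was called, and no member was called lower. The median log2 fold change was 1.20 over the 5 GBPs and 0.60 over the 5 IRGs, beside -0.01 over all 13683 genes tested. All 10 members passed the filter on low counts, and 2 of 10 were called higher, where 7.81% of all genes tested were called higher and 7.31% lower (edgeR quasi-likelihood test, adjusted p below 0.05 and a log2 fold change beyond 1). At an unadjusted p under 0.05, 4 GBPs and 3 IRGs were higher and 0 members lower, beside 18.7% of all genes higher and 18.7% lower. DESeq2 called 3 GBPs and 0 IRGs higher and 0 members lower, beside 6.84% of the 17210 genes it tested higher and 6.65% lower. Every LPS mouse was above every control mouse for Gbp6 and Irgm1, 2 of 10 members, beside 18.1% of all genes tested. No member had every LPS mouse below every control mouse, beside 17.4%. In bulk liver RNA, fewer cells of a type and less RNA per cell cannot be told apart.

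Gbp6 (ENSMUSG00000104713), a GBP that is recruited to pathogen vacuoles, had 8.35, 6.63, 11.4 and 5.95 CPM in control replicates 1 to 4 and 23.0, 21.4 and 19.5 CPM in LPS replicates 1 to 3. The groups did not overlap, and the LPS mice lay close together. Its log2 fold change was 1.40 (SE 0.22, adjusted p = 0.000457). Gbp6 stayed called under every alternative run. Its neighbours in the genome, Gbp10 and Gbp11, are close in sequence, and how the counting treated reads that match several of them is not given in the sources used here, so the division of reads among them is uncertain.

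Gbp5 (ENSMUSG00000105504), a prenylated GBP that promotes assembly of the Nlrp3 inflammasome, had 2.69, 1.20, 1.34 and 1.02 CPM in the controls and 11.0, 5.28 and 2.43 CPM in LPS replicates 1 to 3. LPS replicate 3 lay below control replicate 1, so the groups overlapped, although the fitted log2 fold change of 2.02 (SE 0.49, adjusted p = 0.00921) was the largest among the members. Without LPS replicate 1 it was 1.32 (SE 0.50, adjusted p = 0.0824), no longer a call, and over all alternatives the adjusted p ran from 8.30e-07 to 0.0824.

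Gbp2 (ENSMUSG00000028270), another prenylated GBP and a main effector at vacuoles and bacteria, had 10.6, 3.85, 4.77 and 2.71 CPM in the controls and 21.1, 7.54 and 8.65 CPM in the LPS mice. Control replicate 1, the library with the highest mitochondrial share, exceeded LPS replicates 2 and 3, and the remaining controls lay below every LPS mouse. The log2 fold change was 1.20 (SE 0.45, adjusted p = 0.0646), which was not called. Gbp2 was called without control replicate 1 (log2 fold change 1.73, adjusted p = 0.00589) and by DESeq2 (adjusted p = 0.0257). It was also called with no filter on low counts (adjusted p = 1.36e-05). There the log2 fold change was nearly the same, 1.22, and the SE smaller, 0.25. That setting also gave the lowest adjusted p of Gbp3, Gbp5, Irgm1 and Igtp among the alternatives. The adjusted p of Gbp2 reached 0.386 without LPS replicate 1.

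Gbp3 (ENSMUSG00000028268) had 13.0, 7.38, 8.86 and 7.45 CPM in the controls and 23.7, 11.1 and 10.6 CPM in the LPS mice. Again control replicate 1 was the highest control and exceeded LPS replicates 2 and 3. The log2 fold change was 0.73 (SE 0.30, adjusted p = 0.0900), with 0.25 without LPS replicate 1 (adjusted p = 0.539) and 0.94 without control replicate 1 (adjusted p = 0.0343). Over all alternatives the adjusted p ran from 0.00551 to 0.539, and Gbp3 was called in none.

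Gbp7 (ENSMUSG00000040253), known in macrophages for a part in assembling the phagocyte oxidase, differed from the other GBPs. It had 16.6, 15.3, 12.1 and 17.8 CPM in the controls and 22.4, 9.02 and 6.60 CPM in LPS replicates 1 to 3. LPS replicate 1 was above all controls, whereas LPS replicates 2 and 3 were below all of them. The fitted log2 fold change of -0.27 (SE 0.34, adjusted p = 0.602) therefore averages livers on both sides of the controls. Without LPS replicate 1 it was -0.98 (SE 0.23, adjusted p = 0.0107), just short of the fold change threshold. Without LPS replicate 3 it was 0.04 (adjusted p = 0.961), and over all alternatives the adjusted p ran from 0.0107 to 0.965.

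**Figure D1:**
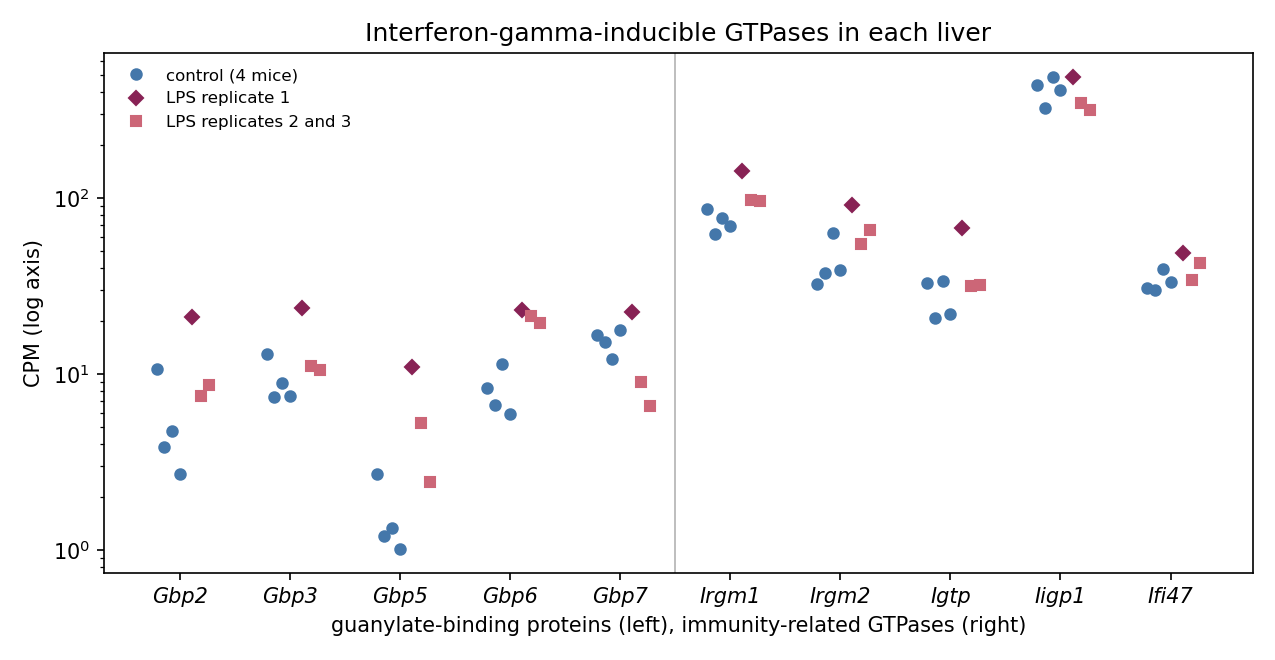
CPM (log axis) of the 10 GTPases, GBPs left and IRGs right. Each symbol is a liver, circles for the 4 control mice, a diamond for LPS replicate 1 and squares for LPS replicates 2 and 3. LPS replicate 1 is the highest LPS mouse for all 10 genes, and in Gbp7 and Iigp1 LPS replicates 2 and 3 sit among or below the lower controls.

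Of the IRG regulators, Irgm1 (ENSMUSG00000046879), which takes part in autophagy and mitochondrial upkeep, had 85.9, 62.2, 76.3 and 68.9 CPM in the controls and 141, 97.4 and 95.4 CPM in the LPS mice. The groups did not overlap. Its log2 fold change of 0.60 (SE 0.17, adjusted p = 0.0215) had an adjusted p under the threshold but a size below it, so it was not called. Without LPS replicate 1 it was 0.40 with an adjusted p of 0.110, the highest over all alternatives, the lowest being 0.00292.

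Irgm2 (ENSMUSG00000069874), a regulator known to restrain caspase-11 responses, had 32.6, 37.6, 63.0 and 39.0 CPM in the controls and 91.6, 55.0 and 66.0 CPM in the LPS mice. Control replicate 3 lay above LPS replicate 2 and the other controls below every LPS mouse. The log2 fold change was 0.72 (SE 0.23, adjusted p = 0.0360), again too small to be called, and 0.49 without LPS replicate 1 (adjusted p = 0.163). Irgm1 and Irgm2 would both be counted if no fold change threshold were set, which gives 4 members higher and none lower. Among all 13683 genes tested, that setting called 1825 higher and 1773 lower.

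Igtp (ENSMUSG00000078853), found on the endoplasmic reticulum and lipid droplets, had 32.7, 20.8, 33.9 and 22.0 CPM in the controls and 67.5, 31.7 and 32.1 CPM in the LPS mice. Only LPS replicate 1 was outside the control range. The log2 fold change was 0.68 (SE 0.27, adjusted p = 0.0826), and 0.23 without LPS replicate 1 (adjusted p = 0.508; over all alternatives 0.000883 to 0.508).

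The effectors Iigp1 and Ifi47 had the smallest fitted changes of the 5 IRG members. Iigp1 (ENSMUSG00000054072), also called Irga6, which in mouse liver is known to have a constitutive promoter beside its interferon-inducible one, had 439, 324, 487 and 409 CPM in the controls and 487, 344 and 316 CPM in the LPS mice. LPS replicate 1 lay barely above the highest control, LPS replicate 3 just below the lowest and LPS replicate 2 within the control range. The log2 fold change was -0.12 (SE 0.19, adjusted p = 0.703), with a 95% confidence interval from -0.53 to 0.29. Without LPS replicate 3 it was 0.01 (adjusted p = 0.992, the highest over all alternatives, the lowest being 0.239). Ifi47 (ENSMUSG00000078920), also called Irgd, had 30.7, 29.8, 39.2 and 33.3 CPM in the controls and 48.3, 34.1 and 42.6 CPM in the LPS mice. LPS replicate 2 lay within the control range and the other LPS mice above it. The log2 fold change was 0.33 (SE 0.16, adjusted p = 0.158), and over all alternatives it ran from 0.21 without LPS replicate 1 (adjusted p = 0.442) to 0.45 without LPS replicate 2 (adjusted p = 0.107).

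Levels between genes were compared per kilobase of exon, with exon lengths from GENCODE M21. In control liver Iigp1 stood far above the rest at 71.3 ± 11.8 CPM per kb (SD, n = 4). Igtp (13.5 ± 3.41), Ifi47 (13.4 ± 1.72), Irgm1 (12.6 ± 1.75) and Irgm2 (11.7 ± 3.68) followed and did not differ from each other beyond their spread. All 5 GBPs were lower: Gbp3 at 2.81 ± 0.812, Gbp7 at 2.75 ± 0.439, Gbp2 at 2.18 ± 1.40, Gbp6 at 1.36 ± 0.410 and Gbp5 at 0.235 ± 0.115 CPM per kb. Gbp3, Gbp7 and Gbp2 were within their spread of each other, and Gbp5 was the lowest member. After LPS the IRGs were still above the GBPs, with Iigp1 at 65.7 ± 15.7 and Gbp5 at 0.938 ± 0.655 CPM per kb (SD, n = 3), while Gbp7 went from place 7 to place 9 of the 10 and Gbp2 from place 8 to place 6.

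The families were then compared within each mouse, as the mean log2 CPM of the 5 GBPs minus that of the 5 IRGs. This difference was -2.89, -3.37, -3.68 and -3.65 in control replicates 1 to 4 and -2.56, -2.89 and -3.28 in LPS replicates 1 to 3. The group means were -3.40 ± 0.37 (SD, n = 4) and -2.91 ± 0.36 (SD, n = 3), a shift of 0.49 toward the GBPs. With 1 mouse left out at a time the shift ran from 0.31 (without LPS replicate 1) to 0.68 (without LPS replicate 3). With all mice it is somewhat larger than the SD of either group, but the groups overlapped: control replicate 1 had nearly the value of LPS replicate 2 and lay above LPS replicate 3. The make-up of the IRGs separated the groups. Iigp1 gave 70.7%, 68.3%, 69.6% and 71.5% of the summed IRG CPM in the controls and 58.3%, 61.2% and 57.3% in the LPS mice. All LPS mice were below all controls in this share, which had means of 70.0% ± 1.38 (SD, n = 4) and 58.9% ± 2.05 (SD, n = 3), while the summed IRG CPM itself overlapped (592 ± 94.1 against 650 ± 161).

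LPS replicate 1 had the highest level of the LPS mice for all 10 members. The same mouse was highest for 36.4% of all genes tested and 39.8% of the genes called higher. In LPS replicate 1, 5 of 5 GBPs and 5 of 5 IRGs were above every control mouse, beside 28.1% of all genes tested. In LPS replicate 2 this held for 2 GBPs and 1 IRG (30.1% of all genes), and in LPS replicate 3 for 1 GBP and 3 IRGs (29.9% of all genes). Below every control were 0 members in LPS replicate 1 (27.0% of all genes), 1 GBP in LPS replicate 2 (30.5%), and 1 GBP and 1 IRG in LPS replicate 3 (29.8%). LPS replicate 1 over the control mean was 7.02-fold for Gbp5, 3.85-fold for Gbp2, 2.84-fold for Gbp6, 2.59-fold for Gbp3, 2.47-fold for Igtp and 1.17-fold for Iigp1. Without this mouse the GBP median fell from 1.20 to 0.58, the IRG median fell from 0.60 to 0.23, and Gbp6 was the single member still called. Gbp6 was also the member with the least gap between LPS replicate 1 and the mean of the other LPS mice, 1.13-fold, against 2.87-fold for Gbp7 and 2.85-fold for Gbp5.

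**Figure D2:**
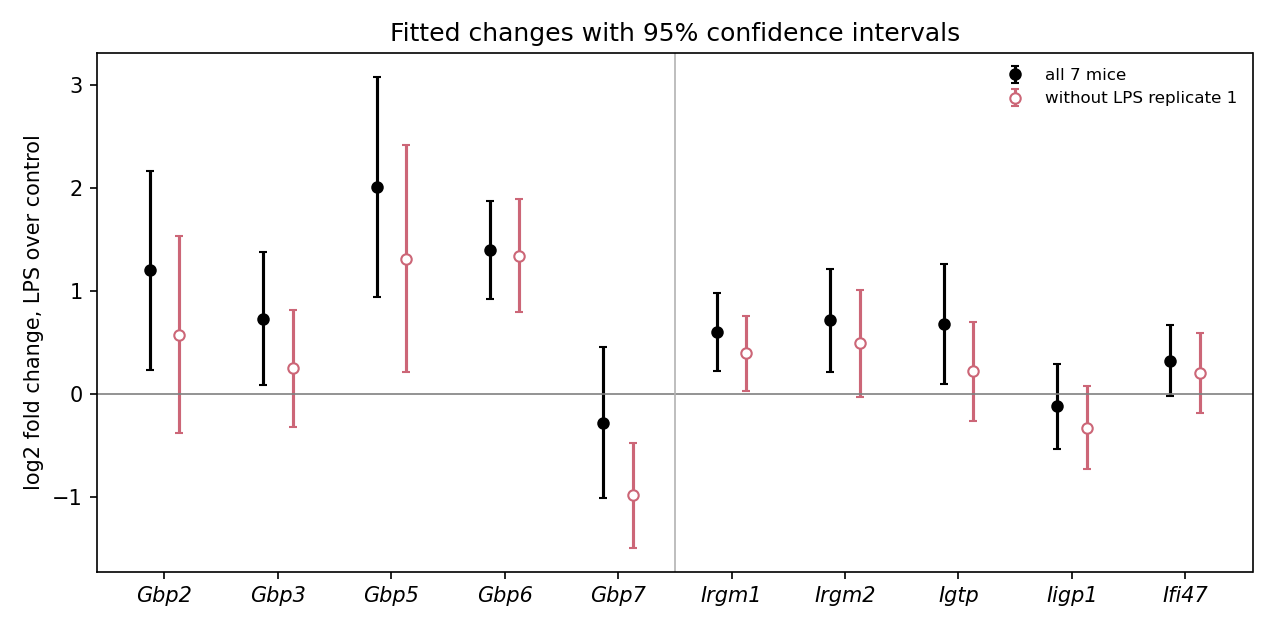
Fitted log2 fold change of LPS over control for each GTPase, with 95% confidence intervals as bars. Filled circles use all 7 mice, open circles leave out LPS replicate 1. Gbp6 keeps its value (1.40 and 1.34), Gbp5 goes from 2.02 to 1.32, and Gbp7 from -0.27 to -0.98.

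Other genes of both families gave changes in both directions. Of 6 other GBPs, 1 was called higher and 1 lower, with a median log2 fold change of 0.08, or 0.04 without LPS replicate 1. Gbp9, which lies beside Gbp4 and Gbp8 in the genome, rose from 4.95 to 15.7 CPM (log2 fold change 1.68, SE 0.31, adjusted p = 0.00141), with all LPS mice above all controls. Gbp2b, the gene formerly named Gbp1, went the other way: its counts were 71, 58, 50 and 17 in the controls and 5, 4 and 4 in the LPS mice, and it fell by 3.63 on the log2 scale (SE 0.67, adjusted p = 0.00147). It lies between Gbp3 and Gbp2, neither of which fell, and LPS replicate 1 was as low as the other LPS mice. Gbp4 (log2 fold change 0.31), Gbp8 (-0.64), Gbp10 (0.20) and Gbp11 (-0.04) were not called.

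Of 9 other IRGs tested, 3 were called higher and 1 lower. Their median log2 fold change was 0.57, or 0.44 without LPS replicate 1. This was above the median of the other GBPs (0.08), the reverse of the order among the 10 members. The larger GBP median therefore holds for the members and not for the rest of the 2 families. Tgtp1, an effector that accumulates on pathogen vacuoles, had 79, 31, 74 and 58 counts in the controls and 525, 230 and 271 in the LPS mice, and rose with a larger fitted change than any of the 10 members (log2 fold change 2.34, SE 0.31, adjusted p = 0.000138). Tgtp2, its near copy, rose with it (1.71, adjusted p = 0.0187), as did Gm12250, which encodes the effector Irgb10 (1.70, adjusted p = 0.00665). Reads of Tgtp1 and Tgtp2 are hard to divide, so their separate values are uncertain. Without LPS replicate 1, Tgtp1 stayed called at 2.10 (adjusted p = 0.000862), while Tgtp2 (adjusted p = 0.143) and Gm12250 (adjusted p = 0.0545) did not. Tgtp2 was not called without control replicate 4 either. F830016B08Rik, another IRG gene, had 399, 242, 213 and 340 counts in the controls and 169, 42 and 37 in the LPS mice and fell by 2.06 on the log2 scale (adjusted p = 0.00233). Gm4951, the most abundant of these genes, had a log2 fold change of -0.03 with 86.4 and 84.8 CPM. Irgq (0.57), Gm5431 (1.20), Gm4841 (-0.44) and 9930111J21Rik2 (-1.10) were not called. Gm12185, 9930111J21Rik1 and Irgc1 were too low to test, and Irgc1 had no count in any library.

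The ligand itself was at the limit of detection. Ifng had 5, 0, 0 and 1 counts in the controls and 0, 0 and 2 in the LPS mice, so a difference in its mRNA was not detectable at this depth, where 3 counts correspond to 0.138 to 0.212 CPM. Of the 15 tested genes of its receptor, signalling and regulators, 4 were called higher and 0 lower, with a median log2 fold change of 0.33. Without LPS replicate 1 the median was 0.19, with 3 called higher and 0 lower. DESeq2 and an unadjusted p under 0.05 also gave 0 lower. Ifngr2, the inducible receptor chain, rose (log2 fold change 1.06, SE 0.20, adjusted p = 0.00149) and Ifngr1 had 0.22 (adjusted p = 0.354). Irf1 (0.33), Irf8 (0.48), Nlrc5 (0.27), Jak1 (0.41) and Jak2 (-0.03) were not called. Socs3, a feedback inhibitor of cytokine receptors, rose most (2.90, SE 0.32, adjusted p = 2.61e-05), followed by the phosphatase gene Ptpn2 (1.14), Ifngr2 and the phosphatase gene Ptpn6 (1.05). Ifngr2, without control replicate 2, and Ptpn6, without control replicate 3 or LPS replicate 1, were not called, their fold changes being near the threshold. Socs1, the main inhibitor of the interferon-gamma receptor, had 3, 4, 0 and 1 counts in the controls and 16, 2 and 14 in the LPS mice, and Ciita had 12, 8, 9 and 9 against 0, 5 and 3. Neither passed the filter on low counts.

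Of 5 tested genes for cytokines, receptors and factors that drive interferon-gamma production, with a median log2 fold change of -0.14, 0 were called lower and 2 higher: Il18rap, a chain of the interleukin-18 receptor (5, 8, 0 and 5 counts in the controls, 59, 20 and 23 in the LPS mice, log2 fold change 2.71, adjusted p = 0.0161), and Ebi3, a subunit of interleukin-27 (0, 4, 5 and 2 against 29, 11 and 14, log2 fold change 2.52, adjusted p = 0.0311). Both rest on few counts. The other 3, Il15 (-0.94), Il18 (-0.73) and Il18r1 (-0.14), were not called, and at an unadjusted p under 0.05 the list had 2 higher and 1 lower, Il18, with DESeq2 calling 2 higher and 0 lower. Without LPS replicate 2 or 3 or control replicate 4, Il18rap was the 1 gene called, and without LPS replicate 1 neither was, while Il18 was called lower. Il12a, Il12b, Il12rb2 and Il27 had at most 6 counts in any library.

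Interferon-gamma targets outside the GTPases were called higher in 8 of 23 tested genes and lower in 2, with a median log2 fold change of 0.62. Cxcl9, a T cell chemokine induced chiefly by interferon-gamma, rose most: its counts were 189, 139, 209 and 181 in the controls and 7970, 5165 and 5804 in the LPS mice (log2 fold change 5.02, SE 0.19, adjusted p = 4.91e-09). Cxcl9 was high in every LPS mouse. Cxcl10 (2.54, adjusted p = 0.00207) and Cd274, which encodes PD-L1 (2.51, adjusted p = 0.000273), followed. The MHC class II genes H2-Aa and H2-Ab1 were the 2 called lower. H2-Aa went from 547, 389, 268 and 366 counts in the controls to 37, 111 and 116 in the LPS mice (adjusted p = 0.00258) and H2-Ab1 fell by 1.44 (adjusted p = 0.00524). All 10 called genes of this list kept their calls with each mouse left out in turn, but without LPS replicate 1 the log2 fold change of Cxcl10 was 1.35 and that of Cd274 1.94.

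Genes known best as type I interferon-stimulated were called higher in 9 of 18 tested and lower in 0, with a median of 1.45, and DESeq2 called 7 higher and 0 lower. No gene of the list was lower at an unadjusted p under 0.05 with all mice. Without LPS replicate 1 the list had 6 genes called higher and 1 lower, Cmpk2 (-1.49, adjusted p = 0.00398), and its median was 0.37. LPS replicate 1 was the highest LPS mouse in 18 of 18, as in the members. Zbp1 (2.33, adjusted p = 1.14e-05), Oas3 (2.27, adjusted p = 0.00141) and Oas1a (1.96, adjusted p = 0.000187) rose most. Of the 9, 6 kept their calls with each mouse left out, and Isg15, Ifit3 and Ifi44 were not called without LPS replicate 1, nor were Isg15 and Ifit3 without some of the control mice. The summed level of the list was 221, 163, 167 and 180 CPM in the controls and 745, 307 and 292 CPM in LPS replicates 1 to 3. Among 5 other interferon-inducible GTPases tested, Mx2 was called higher (1.55, adjusted p = 0.00119). Mx1, with 291 counts in LPS replicate 1 and 22 and 21 in the other LPS mice, was not called with all mice but was without LPS replicate 3, which made 2 calls. LPS replicate 1 was the highest LPS mouse in 5 of 5.

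Partners of these GTPases in inflammasomes, autophagy and ubiquitin tagging were called higher in 5 of 22 tested and lower in 1, with a median log2 fold change of 0.32. Lgals3, the galectin that marks damaged vacuoles (2.16, adjusted p = 0.00332), Pycard, the inflammasome adaptor (2.10, adjusted p = 0.0211), and Nlrp3 (1.81, adjusted p = 0.0320) rose most. Casp4 rose by 1.68 (adjusted p = 0.0120). Gabarapl1, of the ATG8 family on whose conjugation the placement of IRGs and GBPs depends, fell by 1.06 (adjusted p = 0.00307), whereas Map1lc3b of the same family rose by 1.23 (adjusted p = 0.000101). The list gave 3 calls without LPS replicate 1 and 3 without LPS replicate 2, since Casp4, Nlrp3 and Pycard were not called without either. Nlrp3 and Pycard also lost their calls without some other mice, and Gabarapl1 without control replicate 3. None of 5 prenylation and CAAX processing genes, which attach and trim the lipid anchor of Gbp2 and Gbp5, was called by edgeR in either direction (median 0.12). DESeq2 called 0 as well, and 1, Rce1, was higher at an unadjusted p under 0.05. The median of this list was 0.26 without LPS replicate 1.

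Markers of cell types were summed for each mouse. The macrophage and monocyte markers, 9 of 9 tested with 4 called higher and 1 lower, summed to 84.6, 121, 107 and 77.9 CPM in the controls and 540, 116 and 115 CPM in LPS replicates 1 to 3. Most of the excess in LPS replicate 1 was Marco, with 8889 counts there against 1032 and 1054 in the other LPS mice and 88 at most in the controls. Marco was the most abundant of the list over all libraries together, but not in the controls. Marco (5.62, adjusted p = 3.30e-05), Ly6c2 (3.28, adjusted p = 0.000179), Cd68 (2.23, adjusted p = 0.000815) and Adgre1 (1.62, adjusted p = 0.00223) were the 4 called higher, and each kept its call with any mouse left out. Clec4f, which marks Kupffer cells, the resident macrophages of the liver, had 671, 1107, 932 and 897 counts in the controls and 523, 85 and 117 in the LPS mice, and fell by 2.13 (adjusted p = 0.00216). Timd4, another Kupffer cell marker, had 64, 72, 86 and 41 counts in the controls, 279 in LPS replicate 1 and 1 and 10 in LPS replicates 2 and 3. Without LPS replicate 1, Timd4 (-3.52, adjusted p = 0.00416) and Vsig4 (-1.92, adjusted p = 0.00107) were also called lower. The neutrophil markers, 4 of 7 tested and 4 called higher, summed to 5.09, 4.54, 1.89 and 2.81 CPM in the controls and 180, 124 and 125 CPM in the LPS mice, with S100a9 the most abundant. Ly6g had 7, 0 and 1 counts in the LPS mice and none in the controls.

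The T and NK cell markers, the sources of interferon-gamma, had 4 of 9 genes tested and 3 called higher, summed to 3.96, 3.09, 3.42 and 2.27 CPM in the controls and 16.1, 12.2 and 14.7 CPM in the LPS mice. Gzma was the most abundant, and Gzmb (3.41, adjusted p = 0.000325), Prf1 (3.39, adjusted p = 0.0146) and Gzma (3.20, adjusted p = 0.000331) rose. Prf1 was not called without LPS replicate 2 or 3. These are genes of cytotoxic granules. The other gene tested, the T cell marker Cd3g, had 9, 4, 23 and 11 counts in the controls and 13, 5 and 5 in the LPS mice (log2 fold change -0.75, adjusted p = 0.483). The defining T cell markers Cd3d and Cd3e had at most 10 counts in any library, and Ncr1 at most 5. Of 6 endothelial markers, Lyve1 (1.76, adjusted p = 0.000296) and Pecam1 (1.28, adjusted p = 0.00269) were called higher, Pecam1 not without LPS replicate 1, and Clec4g fell by 4.43 (adjusted p = 2.23e-06). Kdr (-0.97, adjusted p = 0.0209) was not called with all mice but was called lower without control replicate 1, control replicate 3 or LPS replicate 1. The list had 1 gene called higher and 2 lower, and a median of -0.57, without LPS replicate 1. Stab2 was the most abundant, and the sums were 96.4, 125, 78.9 and 108 CPM in the controls and 134, 69.8 and 66.9 CPM in LPS replicates 1 to 3.

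The hepatocyte markers summed to 58616, 56651, 79651 and 67184 CPM in the controls and 35465, 37996 and 37798 CPM in the LPS mice, mostly Alb. Ttr fell by 1.23 (adjusted p = 0.000254) and was the single call of 6. Alb (-0.93, adjusted p = 0.0137) was not called with all mice but was called lower without control replicate 1 or 2, and Hnf4a had a log2 fold change of 0.74 that was not called. The stellate cell and cholangiocyte markers had 1 call of 6, Lrat, which fell by 1.33 (adjusted p = 0.0183) but was not called without control replicate 4 or LPS replicate 1 or 2, and sums between 118 and 293 CPM with Dcn the most abundant. The part of these cell types in the levels of the GTPases was not tested.

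The genes outside all lists whose log2 CPM over the 7 samples was most like the mean of the members were Cnep1r1 (Pearson r 0.996), Ndufa4l2 (0.991), Evl (0.980), Nampt (0.975) and Lrrc8c (0.960). Each was highest in LPS replicate 1. Ndufa4l2 had 382 counts there, 43 and 35 in the other LPS mice and at most 34 in the controls, and Nampt, an enzyme of NAD synthesis, had 1998, 940 and 893 in the LPS mice. Among the members, each compared with the mean of the other 9 over the 7 mice, Irgm1 (r 0.977), Igtp (0.971) and Gbp3 (0.965) followed the rest most closely. Iigp1 (0.376) and Gbp7 (0.0607) followed it least, and with group means removed their r was 0.871 and 0.660. By that measure Irgm2 (0.430), Gbp6 (0.507) and Ifi47 (0.517) followed least, so the order depends on the measure. These values describe 7 samples in 2 groups, and carry no test.

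Promoter sequences add what the members share before their gene starts. RefSeq windows of build GRCm38.p6 ran from 250 bases before to 50 bases after each annotated start. They are described for 8 of the 10 members: Gbp2, Gbp3, Gbp5, Gbp7, Irgm1, Irgm2, Igtp and Ifi47. Family genes of 1 chromosome were left out by choice, so a member not described here may still have a window. The comparison over all windows made no such exclusion. The counts were made on GRCm39, so these positions belong to the sequence windows alone. In these windows Gbp5, Gbp7, Gbp3 and Gbp2 lie close together on chromosome 3, with Gbp2b among them, and Irgm1, Ifi47, Igtp and Irgm2 lie on chromosome 11. The windows were searched for TTCNNNGAA, the letters of the gamma-activated site (GAS), which read the same on both strands, and on both strands for GAAANNGAA, a core of the element bound by interferon regulatory factors (IRF). GAS letters stood in 4 of the 8 members (Gbp5, Gbp7, Igtp and Irgm2), beside 8.30% of the 32851 windows of the table, and the IRF core in 7 of 8, all but Ifi47 and, for Gbp3, at 1 of its 2 annotated starts, beside 8.56%. Both stood in 4 of 8, beside 1.07%. Members were counted by gene and the table by window. Igtp and Irgm2 share 39 of 40 bases around their motifs, so their matches are not independent occurrences. No GAS match overlapped an IRF match. The IRF matches of Gbp3 and of Irgm1 overlap each other. A match is a description of letters, and its absence says only that these letters are not in the window.

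**Figure D3:**
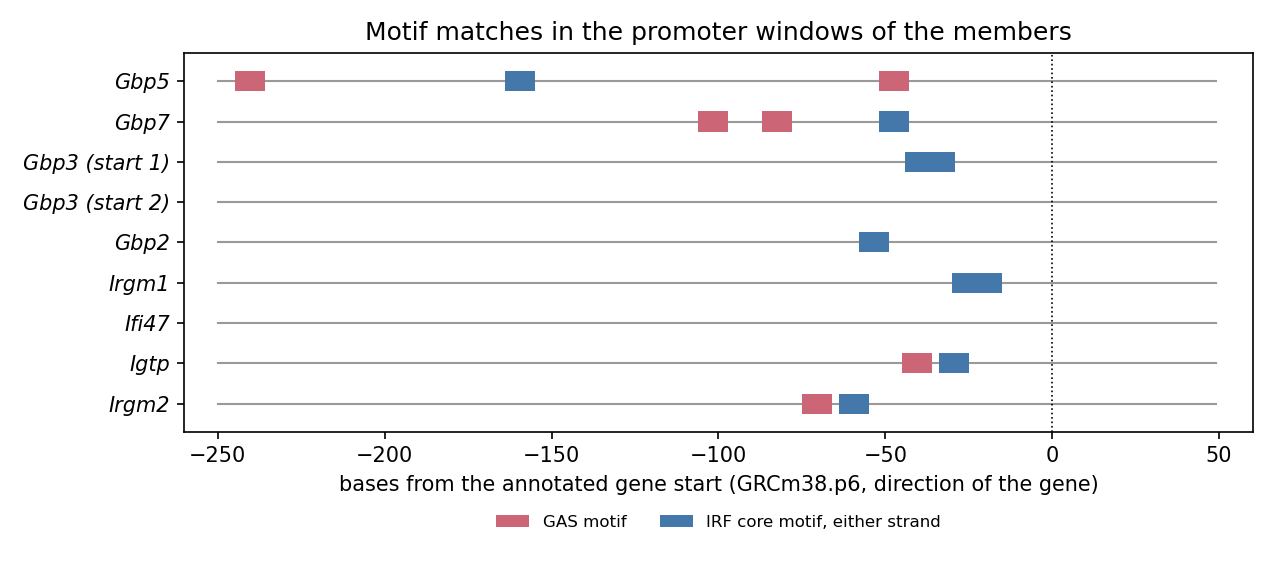
Positions of motif matches in the promoter windows of 8 members, in bases from the annotated gene start in the direction of the gene (Gbp3 has 2 annotated starts). Red blocks are GAS matches and blue blocks IRF core matches. Igtp and Irgm2 have a GAS match followed closely by an IRF core, and Ifi47 has neither.

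Gbp5 and Gbp7 are shown because they are neighbours that hold both motifs and had the highest and the lowest fitted fold change of the GBP members. Capitals mark GAS and IRF matches. The Gbp5 window is chr3:142496684-142496983 (GRCm38.p6, plus strand), with GAS letters starting 245 and 52 bases before the gene start and an IRF core 164 bases before it. The Gbp7 window is chr3:142530086-142530385 (plus strand), with GAS letters 106 and 87 bases before the start and an IRF core 52 bases before it.
Gbp5: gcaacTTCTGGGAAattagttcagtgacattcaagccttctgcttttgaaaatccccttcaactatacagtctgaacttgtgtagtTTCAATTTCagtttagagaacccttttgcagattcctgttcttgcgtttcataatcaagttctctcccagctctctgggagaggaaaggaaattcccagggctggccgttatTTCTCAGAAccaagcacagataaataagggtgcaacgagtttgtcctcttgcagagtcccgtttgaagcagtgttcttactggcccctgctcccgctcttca
Gbp7: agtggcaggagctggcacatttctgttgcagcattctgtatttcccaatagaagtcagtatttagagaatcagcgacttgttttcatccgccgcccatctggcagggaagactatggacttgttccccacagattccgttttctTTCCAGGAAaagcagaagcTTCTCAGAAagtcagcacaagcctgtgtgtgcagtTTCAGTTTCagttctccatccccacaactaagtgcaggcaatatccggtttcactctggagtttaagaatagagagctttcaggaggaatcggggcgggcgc

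In Igtp and Irgm2 the IRF core began 11 bases after the start of the GAS letters, on the strand of the gene and with 2 bases between the motifs. This spacing was looked for only after their positions had been seen. It occurred in 8 of the 32851 windows (0.0244%), and 5 of the 8 belonged to IRG genes of chromosome 11: Igtp, Irgm2, Tgtp1, Tgtp2 and Gm12185. The other 3 belonged to Adar, Olfr382 and an uncharacterised locus. Stretches of 40 bases around the pair are shown for the first 4, since they let the shared letters be read across genes that moved by different amounts, with log2 fold changes of 0.68 for Igtp, 0.72 for Irgm2, 2.34 for Tgtp1 and 1.71 for Tgtp2. They are chr11:58199501-58199540 (plus strand) for Igtp, chr11:58214892-58214931 (plus strand) for Irgm2, chr11:48992305-48992344 (minus strand) for Tgtp1 and chr11:49064264-49064303 (minus strand) for Tgtp2, all of GRCm38.p6 and written in the direction of the gene.
Igtp: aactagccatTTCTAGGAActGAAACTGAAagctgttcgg
Irgm2: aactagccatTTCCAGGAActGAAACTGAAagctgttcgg
Tgtp1: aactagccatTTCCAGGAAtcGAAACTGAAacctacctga
Tgtp2: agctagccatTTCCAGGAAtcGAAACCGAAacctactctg
Over the 40 bases, 28 are the same in all 4 genes, among them 9 of the 10 before the pair. Igtp and Irgm2 share 39 of 40 and Tgtp1 and Tgtp2 share 34 of 40. The stretches come from related genes of 1 family and are not independent occurrences.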

How the data were processed

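Poly(A) RNA of 7 livers was sequenced in strand-specific libraries. The authors deposited raw counts per gene; per the submitters' processing notes, Cutadapt 1.9.1, HISAT2 2.2.1, HTSeq 0.6.1 and the build GRCm39 were used, and the strand and multi-mapping settings of the counting are not given in the sources used here. From these counts, edgeR 4.0.16 (R 4.3.3) was run over the whole table with filterByExpr (13683 of 56691 genes), TMM factors, a quasi-likelihood test with group as its only term, and Benjamini-Hochberg adjustment over all genes tested. Log2 CPM used a prior count of 2. The 10 members and all gene lists were chosen with earlier results of these data known, so lists are described by counts and medians with no test. Named were all members, the other GBPs and IRGs, core interferon-gamma genes, up to 3 called genes per direction in each other list, the cell type markers and the 5 genes most like the members; others named were chosen after their values were seen. p-values measure the spread between these samples. Alternatives changed the tool (DESeq2 1.42.0), scaling, filter, thresholds, a block for replicate number, and the samples used. The model was also run on simulated data, and the outcome is not reported here. Results of some genes are not reported.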

Additional observations from a re-analysis of the deposited data

How the results depend on the processing

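Replicate numbers did not clearly pair the samples, but so few samples cannot exclude pairing. Deviations from the group means correlated at 0.18, -0.06 and 0.07 for numbers 1 to 3. Control replicate 1 and LPS replicate 1 correlated best with each other, but not every sample correlated best with its own number. With replicate number as a block, 1921 genes were called (2068 without), 2 members were still called, and the list of interferon-gamma production genes had 1 call. The 8 members with a positive log2 fold change kept it under every alternative run. Gbp7 turned to 0.0354 and Iigp1 to 0.00533 without LPS replicate 3, the highest of ranges that began at -0.98 and -0.32 without LPS replicate 1. The cause was not tested.

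Leaving out single mice gave 1747 to 2110 genes and 1 to 3 members called, GBP medians of 0.58 to 1.41, IRG medians of 0.23 to 0.71, 1 to 3 calls among GBP members, 2 to 4 among other IRGs, 1 to 2 among other interferon-inducible GTPases, 1 to 2 among interferon-gamma production genes and 3 to 6 among the partners. With no fold change threshold, 3598 genes, 4 members, 2 IRG members, 16 interferon-gamma targets, 13 partners and 1 prenylation gene were called, since the threshold removes small changes. At adjusted p below 0.01, interferon-gamma production genes had 0 calls and the partners 3. With at least 10 counts in every sample, which leaves fewer genes, other GBPs had 1 call and interferon-gamma production genes 0. With no filter on low counts, other interferon-inducible GTPases had 2 calls. Total counts with no scaling factors moved the median of all genes from -0.01 to -0.13 and gave 2 calls among interferon-gamma signalling genes. With LPS replicates 2 and 3 summed, 1800 genes, 2 members and 1 interferon-gamma production gene were called.

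The genes near 3 counts are limited by depth, and 3 LPS mice limit every call. Gbp5 was at 2.69 CPM or less in 5 of 7 livers, and whether depth limits it was not tested.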
